A study of Mus musculus with 8 samples.

Results

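Fatty acid oxidation genes were followed across normal colon and colon tumors of wild-type and caspase-12 deficient C57BL/6 mice. The set held 37 genes, listed by symbol, of which 18 encode mitochondrial proteins, 10 peroxisomal proteins and 4 proteins found in both organelles, with 2 acyl-CoA synthetases, 2 fatty acid binding proteins and the kinase Pdk4. Every probe that carried one of these symbols was taken, which gave 57 probes for 35 genes; Hadha and Acsl1 matched no probe and were not analysed here. Of the 37 genes, 30 were above background (detection p under 0.01) on at least 2 of 8 arrays and were tested among 9341 genes. The other 5 with a probe, Cpt1a, Crot, Amacr, Fabp1 and Fabp2, were not well above background on any array. Of the 30, 25 were above background on all 8 arrays.

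Total RNA was hybridized to Illumina MouseRef-8 bead arrays, with 2 arrays in each of 4 groups: wild-type normal colon (WT-N), caspase-12 deficient normal colon (C12-N), wild-type colon tumors (WT-T) and caspase-12 deficient colon tumors (C12-T). The labels give the C57BL/6 strain for all 4 groups. They do not say whether the 2 arrays of a group came from separate mice, so the p-values reflect the scatter of these arrays alone, which may be technical. The age of the mice, how the tumors arose, where along the colon the tissue was taken and how caspase-12 was removed were not given in the labels or files used. Casp12, the targeted gene, was above background on 0 of 4 wild-type and 2 of 4 deficient arrays, at 5.73 to 5.88 and 5.96 to 7.21 log2 units, and its probe's place relative to the deleted part is not given, so it did not check the labels. All levels below are background-corrected, quantile-normalized log2 intensities, compared between groups for 1 probe at a time; a gene is written as having risen or fallen only where the limma adjusted p was under 0.05.

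Mitochondria break down most fatty acids. The carnitine palmitoyltransferases bring the acyl chain in, acyl-CoA dehydrogenases of different chain length take the first step of each cycle, a hydratase, a hydroxyacyl-CoA dehydrogenase and a thiolase complete it, and the electron transfer flavoprotein passes the electrons to the respiratory chain. Peroxisomes shorten very long, branched and dicarboxylic chains with their own oxidases, bifunctional enzymes and thiolases. In the colon, absorptive epithelial cells draw much of their energy from butyrate, a short-chain fatty acid made by bacteria. Many of these genes are known targets of the peroxisome proliferator-activated receptors (PPARs), nuclear receptors that bind, with a retinoid X receptor partner, to a direct repeat: 2 copies of AGGTCA with 1 base between them.

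Promoter sequences were available from RefSeq (GRCm38.p6) for 31 of the 37 genes. They are shown for the paired thiolase genes Acaa1b and Acaa1a, whose readings differed, for Ehhadh, a well-known PPAR target in mouse liver, and for Fabp1, the only listed gene with a close match to the direct repeat. Each is the 250 bases before the gene's start, 5′ to 3′ on the gene's strand. Capitals mark matches on either strand to the direct repeat, with at most 1 mismatch outside the spacer base, or to AGGTCA as a single copy.
Acaa1b, chr9:119157094-119157343, minus strand: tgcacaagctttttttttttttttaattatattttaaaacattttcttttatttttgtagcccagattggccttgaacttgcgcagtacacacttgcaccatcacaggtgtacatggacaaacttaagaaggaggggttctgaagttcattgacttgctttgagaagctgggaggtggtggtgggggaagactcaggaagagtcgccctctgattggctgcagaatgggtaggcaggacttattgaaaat
Acaa1a, chr9:119341044-119341293, plus strand: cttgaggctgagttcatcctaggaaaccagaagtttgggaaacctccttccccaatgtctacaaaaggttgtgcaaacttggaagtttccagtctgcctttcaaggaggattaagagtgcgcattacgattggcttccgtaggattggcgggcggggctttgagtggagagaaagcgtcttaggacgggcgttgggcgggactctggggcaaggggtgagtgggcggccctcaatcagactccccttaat
Ehhadh, chr16:21787835-21788084, minus strand: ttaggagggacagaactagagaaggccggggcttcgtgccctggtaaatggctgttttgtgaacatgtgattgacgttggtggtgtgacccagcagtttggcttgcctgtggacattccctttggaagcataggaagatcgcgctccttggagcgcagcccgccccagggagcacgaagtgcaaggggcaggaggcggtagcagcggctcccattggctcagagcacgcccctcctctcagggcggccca
Fabp1, chr6:71199629-71199878, plus strand: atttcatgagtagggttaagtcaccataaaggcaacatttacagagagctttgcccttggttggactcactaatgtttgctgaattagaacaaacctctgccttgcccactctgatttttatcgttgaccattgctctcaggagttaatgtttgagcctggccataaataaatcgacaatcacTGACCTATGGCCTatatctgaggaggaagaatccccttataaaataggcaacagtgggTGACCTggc
The match in Fabp1, TGACCTATGGCCT, lies 67 to 55 bases before the start and has 1 mismatch. A match with at most 1 mismatch was present in 1 of the 31 promoters and in 0.484% of 32851 mouse promoters of the same length, and an exact match in 0 and 0.0335%. With up to 2 mismatches the numbers were 3 of 31, in Echs1, Etfa and Fabp1, against 3.24%. A single copy, counted also where it falls inside a direct repeat, was present in 5 of 31 (Acadm, Acadvl, Cpt1a, Echs1 and Fabp1) against 14% of all promoters. The Acaa1b, Acaa1a and Ehhadh windows held neither motif by these letters. Such matches describe letters in a window and do not show binding.

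In deficient mice, tumors had lower levels of most fatty acid oxidation genes than normal colon, in both organelles. Of the 30 genes tested, 20 fell and 0 rose, against 10.5% of all 9341 genes that fell, 9.43% that rose and 19.9% called either way in the same comparison. Among mitochondrial genes 12 of 16 fell, with a median difference of -1.22 log2 units over the 16, and among peroxisomal genes 7 of 9 fell, with a median of -1.58; the median over all genes tested was 0.00. Both medians were the same with every reading below background raised to the lowest reading that passed detection on its array. The order of these medians turned round without background correction (peroxisomal -0.96, mitochondrial -1.18), in the deposited log2 values (-0.92 and -1.07) and over probes detected on all 8 arrays (-0.98 and -1.24). Of the genes shared by both organelles, 1 of 3 fell. Both tumor arrays lay below both normal arrays for 25 of the 30 genes, against 32.6% of all genes. In bulk tissue, fewer cells of a type and less RNA per cell cannot be told apart. With either C12-N array left out, fewer genes passed, in the set and among all genes. The difference was negative for 26 of the 30 genes without C12-N replicate 1 and for 29 without C12-N replicate 2.

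**Figure D1:**
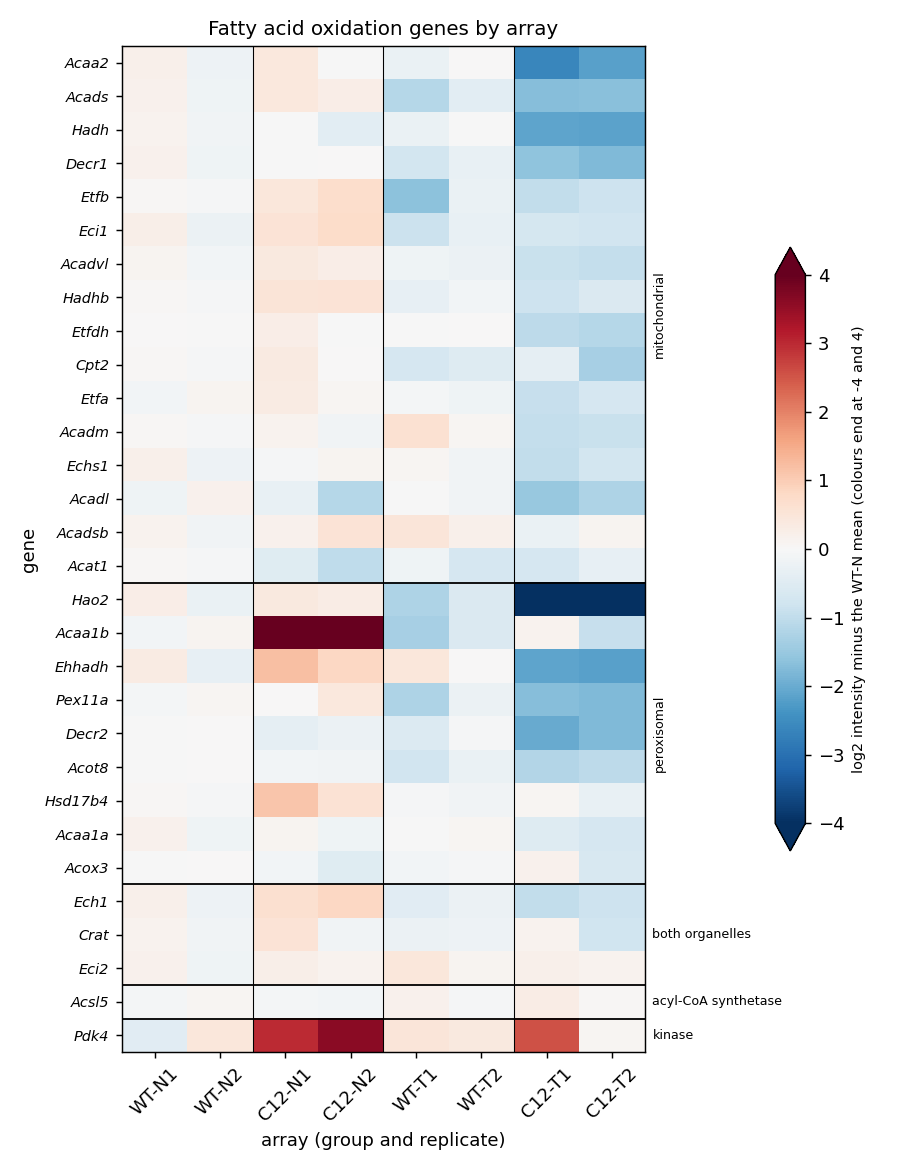
Normalized log2 intensity of the 30 tested genes (rows, grouped by organelle) on each of the 8 arrays (columns), as the difference from the mean of the 2 WT-N arrays; colours end at -4 and 4. Both C12-T columns are blue for most mitochondrial and peroxisomal genes, while Acaa1b and Pdk4 are red in both C12-N columns and Eci2 and Acsl5 stay near white throughout.

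Within the set, the entry step into mitochondria was measured by Cpt2 alone. Cpt1a, an outer-membrane carnitine palmitoyltransferase, read between 5.06 and 5.50 log2 units on all 8 arrays, with none above background. Cpt2, the inner-membrane enzyme of the pair, read 12.08 and 11.73 log2 units in deficient normal colon and 11.38 and 10.39 in deficient tumors. Its difference of -1.02 (SE 0.34) missed the threshold (limma adjusted p = 0.0717), although the tumor arrays lay below the normal ones. Slc25a20, which carries acylcarnitines across the inner membrane and was on a second list of mitochondrial oxidation genes, fell by 1.82 log2 units (SE 0.27, limma adjusted p = 0.00529). Cpt1b, another outer-membrane carnitine palmitoyltransferase, was on that list and above background on all 8 arrays. It was not among the genes named from the list by size.

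Of the 5 acyl-CoA dehydrogenases, 3 fell. Acads (ILMN_2806676, chromosome 5), which acts on short chains such as butyrate, read 12.15 and 11.81 in WT-N, 12.40 and 12.26 in C12-N, 10.83 and 11.55 in WT-T and 10.28 and 10.29 in C12-T. It fell by 2.04 log2 units in deficient tumors (SE 0.28, limma adjusted p = 0.00416), with means of 12.33 ± 0.0975 in C12-N and 10.29 ± 0.00957 in C12-T (SD, n = 2), and both wild-type tumor arrays lay between the deficient tumor and the wild-type normal arrays. Acadm (ILMN_2810473, chromosome 3), the medium-chain enzyme, read 13.34 and 13.25 in WT-N, 13.44 and 13.17 in C12-N, 13.89 and 13.36 in WT-T and 12.36 and 12.41 in C12-T. The deficient tumor arrays were the lowest of the 8, and both wild-type tumor arrays lay above both wild-type normal arrays. Acadm fell by 0.92 (SE 0.25, limma adjusted p = 0.0402), and its other probe fell by 1.34. Acadvl, the very-long-chain enzyme, fell by 1.26 (SE 0.21, limma adjusted p = 0.00734), from 12.41 and 12.28 to 11.12 and 11.05. The long-chain enzyme Acadl and the branched-chain enzyme Acadsb did not pass, at -0.66 (SE 0.31, limma adjusted p = 0.182) and -0.44 (SE 0.26, limma adjusted p = 0.276). The differences between the 5 dehydrogenases were not tested.

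Genes of the remaining steps of the mitochondrial cycle fell too, with Acaa2 furthest among the mitochondrial genes; differences between genes were not tested. Acaa2 (ILMN_2704822, chromosome 18), the thiolase that cleaves acetyl-CoA off medium chains, read 11.54 and 11.14 in WT-N, 11.76 and 11.33 in C12-N, 11.07 and 11.35 in WT-T and 8.73 and 9.17 in C12-T. The 6 arrays of the other groups lay within 11.07 to 11.76, so the deficient tumors stood clear of all of them. Acaa2 fell by 2.60 (SE 0.28, limma adjusted p = 0.00164), and all 4 of its probes fell, with differences of -2.60 to -1.87. Hadh (ILMN_2661733, chromosome 3), the short-chain hydroxyacyl-CoA dehydrogenase, read 9.69 and 9.40 in WT-N, 9.52 and 9.12 in C12-N, 9.27 and 9.52 in WT-T and 7.43 and 7.40 in C12-T. It showed the same order, with only the deficient tumors apart, and fell by 1.90 (SE 0.24, limma adjusted p = 0.00294). Hadhb, the thiolase subunit of the trifunctional protein, fell by 1.24, and the hydratase Echs1 by 0.89. Acat1, which handles acetoacetyl-CoA, was above background on 4 of 8 arrays and on neither array of deficient normal colon, and was given no fold there.

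Genes for unsaturated chains and for electron transfer completed the mitochondrial set. Decr1 (ILMN_1235374, chromosome 4), the dienoyl-CoA reductase, read 9.50 and 9.12 in WT-N, 9.31 and 9.32 in C12-N, 8.58 and 9.02 in WT-T and 7.71 and 7.55 in C12-T. The deficient tumors were again lowest, with the wild-type tumors between them and normal colon. Decr1 fell by 1.68 (SE 0.25, limma adjusted p = 0.00507) and the isomerase Eci1 by 1.36. The flavoprotein subunits Etfa and Etfb fell by 1.00 and 1.49. Etfdh (ILMN_2669804, chromosome 3), which passes their electrons to ubiquinone, read 11.23 and 11.20 in WT-N, 11.48 and 11.20 in C12-N, 11.19 and 11.23 in WT-T and 10.18 and 10.08 in C12-T. Wild-type tumors overlapped wild-type normal colon on this gene, while in deficient mice it fell by 1.21 (SE 0.21, limma adjusted p = 0.00872).

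Of the 9 peroxisomal genes, 3 had tumor readings that were below background on 1 or both deficient arrays, so that their fall is given as a bound. For such bounds each dim array was given the lowest reading that passed detection on it. Hao2 (ILMN_2718638, chromosome 3), a hydroxyacid oxidase, read 12.61 and 12.07 in WT-N, 12.73 and 12.64 in C12-N, 11.12 and 11.77 in WT-T and 4.78 and 7.74 in C12-T. The 2 deficient tumor arrays differed widely from each other, and only the second was above background, yet both lay well below every other array. Hao2 was at least 48.6-fold lower than in deficient normal colon (limma adjusted p = 0.00294).

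Acaa1b (ILMN_2659997, chromosome 9), one of a pair of mouse genes for the peroxisomal thiolase, read 6.53 and 6.75 in WT-N, 12.21 and 11.85 in C12-N, 5.31 and 6.06 in WT-T and 6.79 and 5.73 in C12-T. It was high in deficient normal colon alone and above background elsewhere on 1 array, in deficient tumors. It met the detection filter through deficient normal colon, the group where it was high. In deficient tumors Acaa1b was at least 42.5-fold lower than there (limma adjusted p = 5.27e-04). Its partner Acaa1a read 13.84 and 13.58 in deficient normal colon and 13.23 and 13.06 in deficient tumors, a difference of -0.57 (SE 0.23) that did not pass (limma adjusted p = 0.126). These closely related transcripts have 1 probe each here, and how far each probe reads the other transcript was not tested.

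Ehhadh (ILMN_2706120, chromosome 16), the peroxisomal bifunctional hydratase and dehydrogenase, read 8.60 and 7.96 in WT-N, 9.49 and 9.12 in C12-N, 8.72 and 8.29 in WT-T and 6.17 and 6.11 in C12-T. It was above background on all 6 arrays of the other groups and on neither deficient tumor array, so it was at least 7.29-fold lower there than in deficient normal colon (limma adjusted p = 9.82e-04; difference of the means -3.17). Hsd17b4, the second bifunctional enzyme, which also acts on branched chains, fell by 0.96 (SE 0.26, limma adjusted p = 0.0397). It read 12.89 and 12.35 in deficient normal colon, 11.84 and 11.48 in deficient tumors, and 11.63 to 11.83 on the 4 wild-type arrays, so the deficient tumors lay at the wild-type level.

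Other peroxisomal genes fell as well. Pex11a (ILMN_2700265, chromosome 7), a membrane protein of peroxisome division, read 10.52 and 10.66 in WT-N, 10.60 and 11.01 in C12-N, 9.35 and 10.35 in WT-T and 8.88 and 8.82 in C12-T, and fell by 1.96 in deficient mice (SE 0.34, limma adjusted p = 0.00911). Decr2 (ILMN_2705848, chromosome 17), the peroxisomal dienoyl-CoA reductase, read 8.44 and 8.48 in WT-N, 8.09 and 8.21 in C12-N, 7.92 and 8.42 in WT-T and 6.46 and 6.69 in C12-T. The deficient tumors were lowest for both genes, and for Pex11a the wild-type tumor arrays lay apart from each other. Decr2 fell by 1.58 (SE 0.24, limma adjusted p = 0.00575), and the thioesterase Acot8 by 0.99 with 2 of its 3 probes past the threshold. Ech1 (ILMN_1254786, chromosome 7), a dienoyl-CoA isomerase found in both organelles, read 13.71 and 13.31 in WT-N, 14.15 and 14.35 in C12-N, 13.05 and 13.27 in WT-T and 12.52 and 12.69 in C12-T. Its deficient tumor arrays were the lowest and its deficient normal arrays the highest of the 8, and it fell by 1.64 (SE 0.24, limma adjusted p = 0.00480).

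Some genes of the set passed in no comparison. Eci2, an enoyl-CoA isomerase of both organelles, read 10.48 and 10.14 in WT-N, 10.54 and 10.45 in C12-N, 10.77 and 10.44 in WT-T and 10.51 and 10.47 in C12-T. Its groups overlapped, and the deficient tumor minus normal difference was 0.00 (SE 0.23). Acsl5, an intestinal acyl-CoA synthetase, read 12.88 and 13.05 in WT-N, 12.90 and 12.85 in C12-N, 13.13 and 12.92 in WT-T and 13.26 and 13.02 in C12-T. It was the 1 tested gene whose deficient tumor arrays both lay above both deficient normal arrays, by 0.27 (SE 0.22, limma adjusted p = 0.417). The peroxisomal oxidase Acox3 read 9.31 and 9.33 in WT-N, 9.23 and 8.85 in C12-N, 9.23 and 9.27 in WT-T and 9.51 and 8.68 in C12-T. Crat, the carnitine acetyltransferase, read 8.55 and 8.29, then 8.96 and 8.30, then 8.18 and 8.23, and 8.57 and 7.64 in the same order of groups. For both genes deficient tumor replicate 1 lay well above replicate 2. Acadsb read 10.78 and 10.52, then 10.81 and 11.21, then 11.12 and 10.85, and 10.39 and 10.76 in that order. Its groups did not overlap in any of the 4 pairs compared, but no difference passed. Deficient tumors had the lowest mean, although their arrays overlapped those of wild-type normal colon, a pair that was not compared. Acat1 read 6.96 and 6.85, then 6.42 and 5.88, then 6.74 and 6.24, and 6.24 and 6.56, close to the limit of detection throughout.

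**Figure D2:**
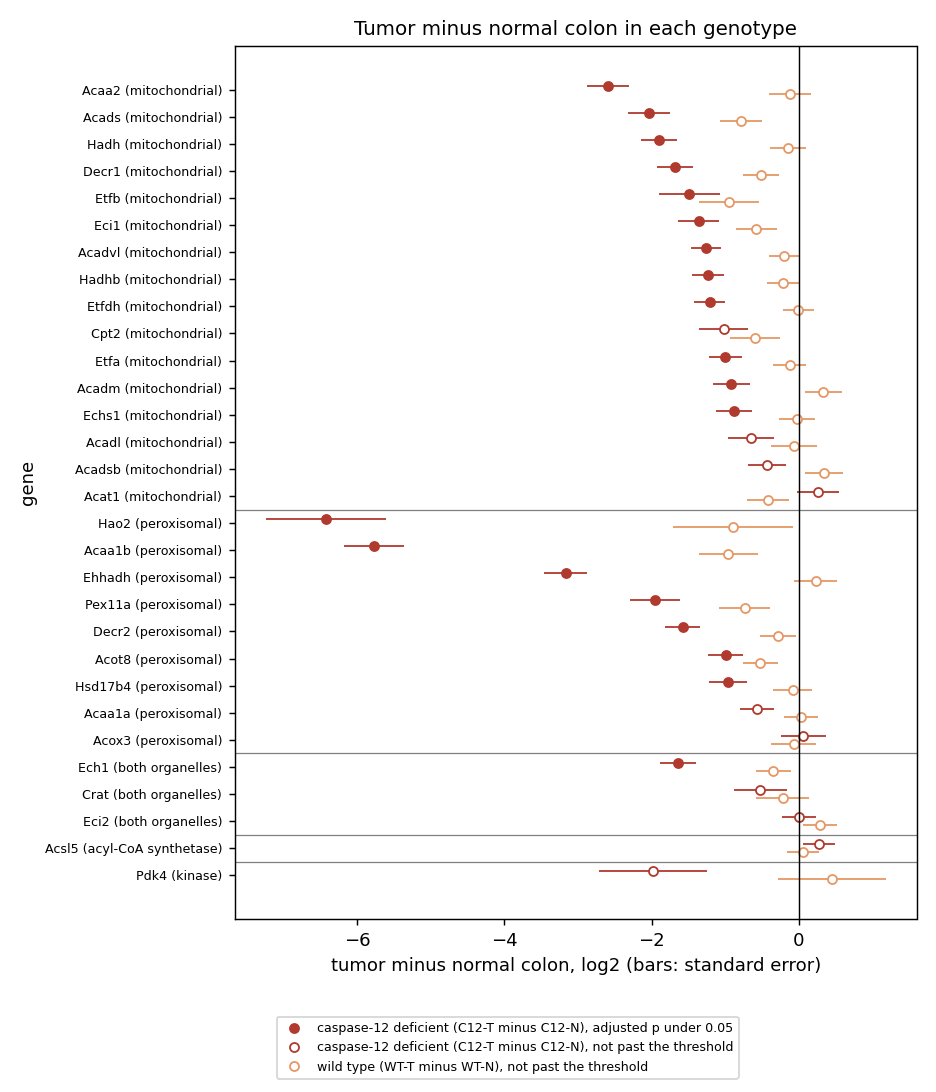
Tumor minus normal difference (log2, with bars of 1 standard error) for each of the 30 genes in deficient mice (red) and wild-type mice (orange); filled points have a limma adjusted p under 0.05. Filled points run from Hao2 at -6.42 to Echs1 at -0.89, and no wild-type point is filled. Hao2, Acaa1b and Ehhadh are drawn at their fitted values, although they have tumor readings below background.

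In wild-type mice none of the fatty acid oxidation genes passed the test between tumor and normal colon. With limma, 0 of 30 were called, against 0% of all 9341 genes, and 2 of 30 had an unadjusted p under 0.05, as did 1154 of 13327 probes; the lowest adjusted p among the 30 was 0.547. The median difference was -0.17 log2 units over the 16 mitochondrial genes and -0.29 over the 9 peroxisomal genes, with 23 of 30 differences below 0; across the ways of scaling the arrays that number ran from 19 to 26. Both tumor arrays lay below both normal arrays for 16 of the 30 genes and above them for 2, against 23.0% and 22.7% of all genes. The wild-type tumor arrays were not alike: Etfb read 11.60 on replicate 1 and 12.97 on replicate 2, against 13.27 and 13.20 in wild-type normal colon. Acads and Pex11a were also lower on replicate 1. That array also carried squamous epithelium markers, with all 12 tested markers above background and a summed intensity of 94889, against 3 of 12 and 1408 on replicate 2; the part of these cells in the result was not tested.

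A direct test of whether the tumor difference depended on genotype (the interaction term) called 5 of 30 genes, all more negative in deficient mice, against 2.29% of all genes in that direction, 1.73% in the other and 4.03% in either. They were the mitochondrial genes Acaa2 and Hadh and the peroxisomal genes Acaa1b, Ehhadh and Hao2. The interaction was -2.47 (SE 0.40, limma adjusted p = 0.0232) for Acaa2 and -1.76 (SE 0.34, limma adjusted p = 0.0393) for Hadh. For Ehhadh it was -3.09 or beyond (limma adjusted p = 0.0111) and for Hao2 -4.70 or beyond (limma adjusted p = 0.0457), with the dim tumor readings at their bound. Acaa1b passed as well (limma adjusted p = 0.00999), but it was above background on no wild-type array, so no size is given, and the term rests on its level in deficient normal colon. All 4 Acaa2 probes passed. For Acadm the dimmer probe passed (-1.65, limma adjusted p = 0.0426), while the brighter one, which represents the gene, did not (-1.25, limma adjusted p = 0.0987). Fewer genes passed with any one C12-N, WT-N or WT-T array left out, in the set and among all genes. No single gene of the 5 was called under every alternative.

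Normal colon of the 2 genotypes differed in 1 fatty acid oxidation gene. Acaa1b was at least 36.3-fold higher in C12-N than in WT-N (limma adjusted p = 0.00166), against 1.16% of all genes that were higher. Acaa1b entered the test through C12-N itself, and it drops out where only genes above background on all 8 arrays are tested. No gene of the 30 was lower, against 1.15%, and 2.30% of all genes were called either way. Pdk4, the kinase that holds back pyruvate dehydrogenase when fat is burnt and a known PPAR target, read 6.39 and 7.31 in WT-N, 9.84 and 10.45 in C12-N, 7.34 and 7.25 in WT-T and 9.41 and 6.92 in C12-T. Both deficient normal arrays lay above all others, but the difference of 3.30 (SE 0.73) missed the threshold (limma adjusted p = 0.0713). It passed in 3 of 18 settings, among them those without either one of the C12-T arrays. Ehhadh differed by 1.02 (SE 0.29, limma adjusted p = 0.135) and Hsd17b4 by 0.85 (SE 0.26, limma adjusted p = 0.150), with both deficient arrays above both wild-type arrays in each case, as for 12 of the 30 genes and 31.1% of all genes. Pdk4, Hsd17b4 and Acaa1a are given array by array because of their values. The median over the mitochondrial genes was 0.19 and over the peroxisomal genes 0.22, against 0.04 over all genes.

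**Figure D3:**
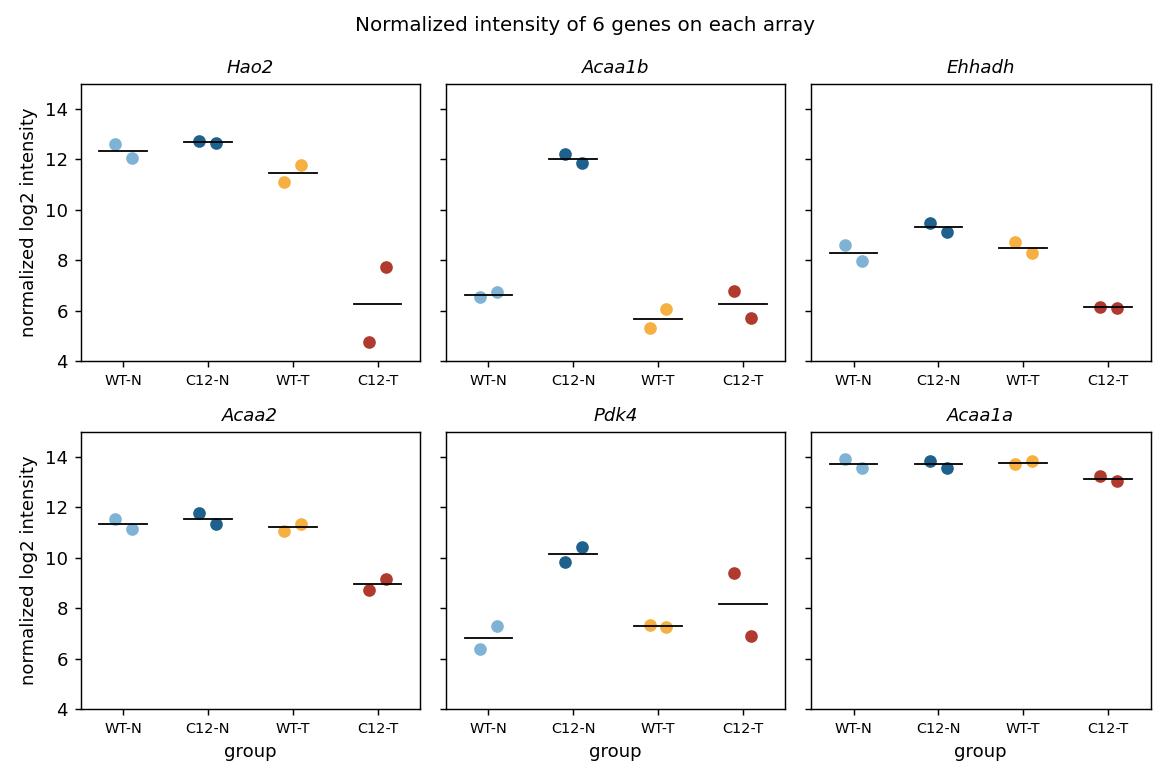
Normalized log2 intensity of Hao2, Acaa1b, Ehhadh, Acaa2, Pdk4 and Acaa1a on each array (points) by group, with a bar at the mean of the 2 arrays; the vertical axis starts at 4. Acaa1b is near 12 in C12-N and under 7 elsewhere, whereas Hao2, Ehhadh and Acaa2 are lowest in C12-T and Acaa1a lies between 13.06 and 13.90 on all arrays.

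Other genes differed between the normal colons beside Acaa1b. Among the other PPAR target genes, 1 of 14 tested was higher in deficient normal colon, against 1.16% of all genes: malic enzyme Me1, which supplies NADPH, at 11.42 and 10.97 in C12-N and 8.94 and 9.31 in WT-N (difference 2.07, SE 0.35, limma adjusted p = 0.0313); Me1 is named after its value was seen. Of 11 markers of small intestine and proximal gut, 7 had a probe and 5 were tested; Apoa1 and Apoa4 were above background on no array. Of the 5, 3 were higher in deficient normal colon. The homeobox gene Hoxb6 was at least 6.94-fold higher (limma adjusted p = 0.00166), the brush border enzyme Sis (sucrase-isomaltase) at least 3.66-fold (limma adjusted p = 0.00906) and Cyp4b1 at least 6.84-fold (limma adjusted p = 0.00400). All 3 were above background on both C12-N arrays and on no other, so that they entered the test through the group where they were high. The other 2 of the 5, Fabp6 and Onecut2, were not called in this comparison. Fabp6 was above background in every group. Onecut2 was above background in deficient tumors alone and met the filter through them. It was at least 4.73-fold higher there than in deficient normal colon (limma adjusted p = 0.0475). Adipocyte markers had a summed intensity of 10325 to 11151 in deficient normal colon and 4401 to 4819 in wild-type normal colon, with 1 of 6, Acvr1c, called higher. Acvr1c too was above background on the C12-N arrays alone and entered the test through them. The part of proximal gut or adipocyte cells in the Acaa1b and Pdk4 values was not tested.

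Between the tumors of both genotypes, 10 of 30 fatty acid oxidation genes were lower in deficient mice and 0 were higher, against 9.09% of all genes lower and 8.54% higher. They comprised 7 of 16 mitochondrial and 3 of 9 peroxisomal genes. Hao2 was at least 20.5-fold lower (limma adjusted p = 0.00837), and Ehhadh was at least 4.20-fold lower (limma adjusted p = 0.00444). Both deficient arrays lay below both wild-type arrays for 19 of the 30 genes, against 29.1% of all genes. The median was -0.78 over the mitochondrial and -0.62 over the peroxisomal genes, against 0.02 over all genes. Without C12-T replicate 1 or without WT-T replicate 2 fewer genes passed, in the set and among all genes. The difference was negative for 26 and 25 of the 30 genes in these 2 fits. It was negative for 23 without C12-T replicate 2 and for 24 without WT-T replicate 1.

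The mitochondrial genes that differed between the tumors were acyl-CoA dehydrogenases, the hydroxyacyl-CoA dehydrogenase Hadh, the thiolase Acaa2, Decr1 and Etfdh. Acaa2 differed by -2.26 (SE 0.28, limma adjusted p = 0.00444) and Hadh by -1.98 (SE 0.24, limma adjusted p = 0.00421). Acadm differed by -1.24 (SE 0.25, limma adjusted p = 0.0172), and its other probe by -2.09. Acadl (ILMN_2689473, chromosome 1) read 10.20 and 10.52 in WT-N, 10.06 and 9.22 in C12-N, 10.35 and 10.23 in WT-T and 8.84 and 9.13 in C12-T. Its normal colon arrays of the deficient genotype were also low, and the tumors differed by -1.31 (SE 0.31, limma adjusted p = 0.0283); the other Acadl probe gave -0.62 and was not called. Decr1 and Etfdh differed by -1.17 and -1.08 (limma adjusted p = 0.0201 and 0.0156). Acads and Etfa did not pass by their brightest probes. The dimmer Acads probe did (-1.38, limma adjusted p = 0.0179), as did 1 of 4 Etfa probes (-1.27, limma adjusted p = 0.0126). Acadvl (ILMN_2956932, chromosome 11) read 12.13 and 11.90 in WT-N, 12.41 and 12.28 in C12-N, 11.86 and 11.78 in WT-T and 11.12 and 11.05 in C12-T. Its replicates lay close together, and the difference of -0.73 (SE 0.21) was near the threshold (limma adjusted p = 0.0474). Of the peroxisomal genes, Decr2 differed by -1.60 (SE 0.24, limma adjusted p = 0.00752). Etfb and Hsd17b4, which fell from normal colon to tumor in deficient mice, differed between the tumors by 0.04 and -0.02. For Etfb the deficient arrays (12.24 and 12.41) lay between the 2 wild-type ones, which were far apart (11.60 and 12.97).

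**Figure D4:**
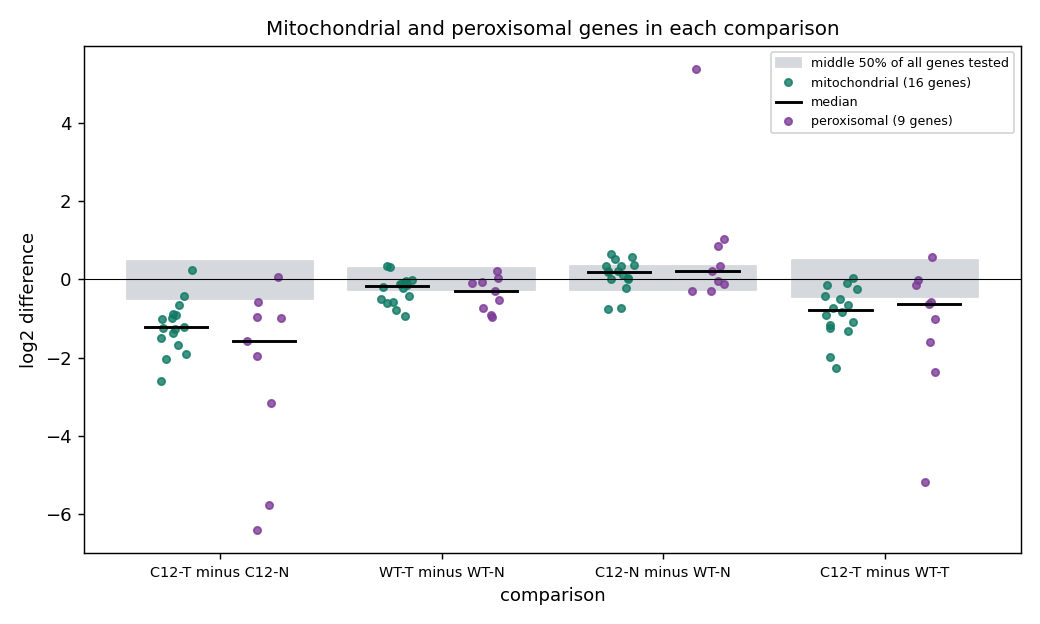
Log2 difference of each mitochondrial (16 genes, green) and peroxisomal (9 genes, purple) gene in 4 comparisons, with black bars at the medians and grey bands over the interquartile range of all 9341 genes. In C12-T minus C12-N the medians lie at -1.22 and -1.58, below the band, and in WT-T minus WT-N at -0.17 and -0.29.

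The median over either organelle's genes was lower on both deficient tumor arrays than on the wild-type tumor arrays. Measured from the mean of wild-type normal colon, the median over the mitochondrial genes was -0.95 and -0.93 on the deficient tumor arrays and -0.22 and -0.15 on the wild-type tumor arrays. For the peroxisomal genes it was -1.17 and -1.05 on the deficient and -0.54 and -0.13 on the wild-type tumor arrays. Of the 16 mitochondrial genes, 16 and 15 lay below the wild-type normal mean on the deficient tumor arrays and 13 and 12 on the wild-type tumor arrays. Of the 9 peroxisomal genes, 6 and 9 lay below it on the deficient and 8 and 7 on the wild-type tumor arrays, so that these counts did not set the genotypes apart. The SD of the replicate difference over the 30 genes was 0.82 log2 units in deficient tumors and 0.32 to 0.45 in the other groups. Hao2 (4.78 and 7.74) and Pdk4 (9.41 and 6.92) lay furthest apart between the deficient tumor replicates. Over all probes tested the SD was 0.76 in deficient tumors, 0.71 in wild-type tumors, 0.48 in C12-N and 0.47 in WT-N. Whether the organelles differed from each other was not tested.

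Further genes of both pathways were looked at through lists beyond the 37. Of 15 other mitochondrial oxidation genes, 7 fell and 0 rose in deficient tumors against deficient normal colon, where 10.5% of all genes fell and 9.43% rose. They included Pcca, a propionyl-CoA carboxylase subunit (-1.92, SE 0.29, limma adjusted p = 0.00535), Slc25a20, and the acyl-CoA dehydrogenases Acad8 (-1.22) and Acad12, which was not above background in the tumors and at least 2.16-fold lower. Of 4 ketone body genes, 1 fell, the hydroxybutyrate dehydrogenase Bdh1 (-1.33, limma adjusted p = 0.0319). Of 25 other peroxisomal genes, 13 fell and 0 rose. The acyl-CoA thioesterase Acot4 was at least 5.17-fold lower (limma adjusted p = 7.15e-04), and the epoxide hydrolase Ephx2, the membrane protein Pxmp4 and catalase (Cat) fell by 2.64, 1.86 and 1.26. Of 14 peroxisome biogenesis genes, which were peroxins together with Fis1, Dnm1l and Mff, 1 fell, a share near that of all genes. It was Pex7, an import receptor, by 0.72 (limma adjusted p = 0.0444). The median over the 14 biogenesis genes was -0.24, against -0.85 over the 25 peroxisomal genes. The difference between these lists was not tested.

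Genes around the pathway did not all go the same way. Of 13 tested uptake and activation genes, 3 rose and 4 fell in deficient tumors, against 9.43% and 10.5% of all genes. Fabp5, a fatty acid binding protein abundant in skin, was not above background in normal colon and at least 8.75-fold higher in deficient tumors (limma adjusted p = 0.00951), and the acyl-CoA synthetase Acsbg1 at least 3.57-fold higher (limma adjusted p = 0.0129). The third was Acsl4. By the probes used, all 3 were above background on both deficient tumor arrays, 1 wild-type tumor array and no normal colon array. They met the filter through deficient tumors, the group where they were high. Another Acsl4 probe was above background in normal colon of both genotypes. Fabp5 read 7.74 on wild-type tumor replicate 1 and 5.68 on replicate 2. Slc27a2, a fatty acid transporter of peroxisomes and the cell membrane, was at least 2.71-fold lower (limma adjusted p = 0.0108) and the acetyl-CoA synthetase Acss2 fell by 1.25. Of 13 fatty acid synthesis genes 1 rose, the desaturase Fads2 (1.55, limma adjusted p = 0.0380), and 1 fell, the transcription factor Mlxipl (-1.54, limma adjusted p = 0.0177), which is near the share of all genes in each direction.

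Several regulators of these genes were lower in deficient tumors as well. Of 14 nuclear receptors and coactivators tested, 7 fell and 0 rose against deficient normal colon, where 10.5% of all genes fell. Pparg, the PPAR of fat and colon epithelium, read 12.54 and 11.92 in deficient normal colon and 9.53 and 9.89 in deficient tumors, a difference of -2.52 (SE 0.27, limma adjusted p = 0.00161). The bile acid receptor Nr1h4 fell by 2.47 and the coactivator Ppargc1b by 2.15, and the membrane-bound factor Creb3l3 was at least 2.85-fold lower (limma adjusted p = 0.00165). Ppara and Ppard were not well above background on any array. Among 14 other PPAR target genes 3 fell: the cytochrome P450 Cyp4f14 by 5.04 (SE 0.60, limma adjusted p = 0.00238), Slc25a20, and the lipid droplet protein Cidec, which was above background on 1 of 2 deficient tumor arrays and at least 5.34-fold lower (limma adjusted p = 0.0254). Pparg and Cidec are also adipocyte markers.

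Markers of other cell types moved with the deficient tumors. Over all genes, 10.5% fell and 9.43% rose in deficient tumors against deficient normal colon. Of 12 tested markers of absorptive colonocytes, 11 fell in deficient tumors against deficient normal colon, with a median of -2.32, and their summed intensity was 24328 to 34026 in deficient tumors against 162734 to 178688 in deficient normal colon and 125820 to 182538 in wild-type tumors. Of 8 general epithelial markers 1 rose, Krt18, and 1 fell, Vil1, which is near the share of all genes in each direction. The summed intensity of the 8 was 96966 to 104017 in deficient tumors and 108518 to 120368 in deficient normal colon. All 12 colonocyte and all 8 epithelial markers were above background on every normal colon array. Of 6 tested adipocyte markers, Pparg and Cidec among them, 4 fell with a median of -2.05, and their summed intensity was 1981 to 3671 in deficient tumors against 10325 to 11151 in deficient normal colon. That sum includes Pparg, which is also a gene of colon epithelium. Adipoq and Lep did not pass, with log2 means of 7.73 and 6.71 in deficient normal colon and 7.26 and 6.49 in deficient tumors. Plin1, Fabp4 and Retn were above background on no array. Of 9 smooth muscle markers 4 fell, with a median of -1.15, and their summed intensity was 56096 to 99588 against 131299 to 132146. All 6 tested neutrophil markers rose, to a summed intensity of 110431 to 115171 from 627 to 1216, and 6 of 12 squamous epithelium markers rose. The neutrophil markers Ngp, Camp, Elane, Mpo and Cxcr2 were above background on at most 1 array and were not tested. Retnlg among the neutrophil markers met the filter through deficient tumors, where it was high. So did the squamous markers Krt4, Trp63, Krt15 and Krtdap. Squamous markers summed to 68503 to 179045 in deficient tumors and 2078 to 2198 in deficient normal colon. Skeletal muscle markers summed to 149904 on deficient tumor replicate 1 and 1421 on replicate 2. Without replicate 1, 28 of the 30 fatty acid oxidation genes still had a negative difference from deficient normal colon. Fewer passed, as among all genes. The part of these cell types in the lower fatty acid oxidation values, or in the Pparg, Cidec and Fabp5 values, was not tested.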

How the data were processed

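Per the file headers, the deposited table held intensity values, each with its detection p-value, for 25697 probes on 8 Cy3 arrays; the submitters' processing notes name BeadStudio 3.2.7. A deposited series table of log2 values served as an alternative. Symbols came from the platform annotation (23978 probes with 1 symbol, 0 with several, 1719 without).

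Intensities were corrected and normalized with neqc (normexp on negative controls inferred from the detection p-values, offset 16, quantile, log2) in limma 3.58.1 under R 4.3.3. A model of 4 group means on 13327 probes gave 5 comparisons, with 4 residual and 3.55 prior degrees of freedom, two-sided tests and Benjamini-Hochberg adjustment over all probes, threshold 0.05. A gene was read from its brightest tested probe. The procedure was tested on simulated data.

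The genes, lists and naming rule were chosen with earlier results of these data known. Array values were printed for up to 10 called genes a comparison and 6 uncalled ones, and up to 4 genes a list were named, by the size of C12-T minus C12-N. Alternatives covered background, scaling, filter, probe, weights, replicate block, deposited values and each array left out. The number of arrays limits the precision.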

Additional observations from a re-analysis of the deposited data

Results flagged for a closer look

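For 12 genes the tumor minus normal difference was tested as unequal in the 2 genotypes (limma interaction, deficient minus wild-type difference, log2). Among the fatty acid oxidation genes it was -1.76 for Hadh, -2.47 for Acaa2, -3.39 for Ehhadh, -4.81 for Acaa1b and -5.52 for Hao2. The last 3 are fitted values that include readings below background: Ehhadh and Hao2 carry only the bounds -3.09 and -4.70, and Acaa1b no size. Among the other peroxisomal genes it was -2.54 for Acot4 (limma adjusted p = 0.0126) and -2.39 for Ephx2 (limma adjusted p = 0.0256). Among the regulators it was -1.96 for Pparg (limma adjusted p = 0.0393) and -2.92 for Creb3l3 (limma adjusted p = 0.0118). Acot4 and Creb3l3 were below background on both C12-T arrays, so their values are fitted ones too. The proximal gut markers Hoxb6, Sis and Cyp4b1 were above background on the C12-N arrays alone and met the filter through them. No size is read from their fitted values, which were -4.36 for Hoxb6, -3.44 for Sis (limma adjusted p = 0.0284) and -3.35 for Cyp4b1 (limma adjusted p = 0.0111). The other 2 tested markers of that list, Fabp6 and Onecut2, were not called in the interaction.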

How the results depend on the processing

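No call changed direction under the alternatives run. Of the genes called, 10 of 20 (deficient tumor minus normal), 1 of 1 (normal colon), 5 of 10 (between tumors) and 0 of 5 (interaction) were called in every setting that tested them. Most losses came with 1 array left out: the counts then ran from 11 to 19 of 30 for deficient tumor minus normal colon, 1 to 2 for normal colon, 5 to 9 between tumors, 0 to 5 for the interaction and 0 for wild-type tumor minus normal. Such a fit has 1 residual degree of freedom fewer, and the lone array is assumed to vary like the other groups. The interaction count was 3 with median scaling, 3 without a filter on detection and 2 over probes detected on all 8 arrays. The normal colon count was 0 over those probes, which leaves Acaa1b out, and 2 with array weights. Where not given, the cause was not tested. In the deposited log2 values 4 genes gave smaller deficient tumor minus normal differences: -0.78 for Decr2, -1.92 for Ehhadh, -1.22 for Hadh and -1.06 for Decr1. Median scaling and the deposited values moved the all-gene median by -0.14 and 0.11 for wild-type tumor minus normal, and the deposited values by 0.13 for deficient tumor minus normal. Whether normal and tumor arrays of the same number share a mouse is not given. Replicate differences correlated at 0.16 between C12-N and C12-T, 0.08 between WT-N and WT-T and -0.03 to 0.16 over all pairs of groups. Such values cannot decide whether the samples are paired. With the replicate block the counts were 19, 0, 1, 10 and 5. The slide block was not run, because the files used here give no slides. Probes near background carry only bounds.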

Other observations

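Over the 8 arrays, the genes most like Acaa1b by Pearson's r were Tmem252 (0.990), Tmem33 (0.988) and Ces1g (0.981). Those most like Hao2 were Tmed3 (0.997), Scin (0.995) and Cth (0.994). Slc30a6 (0.993), Gna11 (0.983) and Tppp (0.982) came closest to Ehhadh, and Plpp6 (0.978), Heca (0.975) and Mcu (0.975) to Acadm. These 8 points share 4 groups, so the values describe likeness of level only and carry no test.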
